A study of Mus musculus with 4 samples.

Results

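The proteasome subunits examined here were the genes named Psma, Psmb, Psmc or Psmd followed by a number, without Psmb8 and Psmb9. This rule found 36 of the 14082 genes listed in each table, and all 36 passed the filter on low counts. They were measured by bulk RNA-seq in samples described as ovalbumin-specific CD8 T cells sorted from subcutaneous E.G7 tumours. The mice were injected at 6 to 10 weeks of age. E.G7 is a mouse T lymphoma line that expresses ovalbumin. The libraries labelled KO came from Cd8-cre Smad4-fl/fl mice (n = 2), in which Cre is driven by Cd8 sequences and acts in the CD8 lineage, and those labelled WT from Smad4-fl/fl mice (n = 2), which carry the same floxed alleles without Cre. By this design, host cells outside that lineage and the tumour cells themselves should keep Smad4 in both groups. Where Cre acted was not tested. Nothing in the labels ties each library to its own animal, so p-values here reflect the variation among these 4 libraries, which may be technical.

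The proteasome degrades proteins tagged with ubiquitin. Its barrel-shaped core particle is a stack of rings of alpha subunits (Psma genes), which gate the entrance, around rings of beta subunits (Psmb genes), which hold the protease sites. The regulatory particle that caps the core has a base, with a ring of ATPases (Psmc genes) that unfold the substrate and with scaffold and receptor subunits (some Psmd genes), and a lid (other Psmd genes) that removes the ubiquitin chain. Some Psmd genes encode chaperones that assemble the base. In lymphocytes and cells exposed to interferon gamma, the catalytic subunits encoded by Psmb5, Psmb6 and Psmb7 are partly replaced by those of Psmb8, Psmb9 and Psmb10, which favours peptides that load MHC class I.

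Summed counts were 25806382 and 26218277 in the KO libraries and 24366540 and 25790107 in the WT libraries. Smad4 itself had 29.3 and 40.3 CPM (TMM-scaled counts relative to library size) in KO and 31.7 and 29.4 CPM in WT. The groups overlapped, and its log2 fold change was 0.19 (edgeR quasi-likelihood, Benjamini-Hochberg adjusted p = 0.397), so directions below are between libraries labelled KO and WT. Leaving out KO replicate 1 gave 0.40 (edgeR adjusted p = 0.00806), and leaving out KO replicate 2 gave -0.063. Besides T cell markers, the libraries held transcripts of other cells. The T cell markers Cd8a, Cd8b1, Cd3e, Cd3d, Cd3g and Cd2 (4 of 6 lower in KO) were summed. The sum was 1472 and 1482 CPM in KO and 2222 and 2232 CPM in WT. Only Cd8a and Cd8b1 encode CD8, and the others are shared with other T cells. Cd8a had 239 and 248 CPM in KO and 472 and 455 CPM in WT. Cd8b1 had 157 and 158 CPM in KO and 306 and 304 CPM in WT. Neutrophil markers (6 of 8 higher in KO) summed to 1569 and 1607 CPM in KO and 495 and 494 CPM in WT, with S100a9 at 472 and 473 CPM in KO and 114 and 111 CPM in WT, and the defining marker Ly6g near 0, at most 0.704 CPM in KO and at most 0.422 CPM in WT. Monocyte and macrophage markers (0 of 8 called) summed to 16392 and 17124 CPM in KO and 16816 and 17454 CPM in WT. This sum was above the T cell marker sum in every library, so levels below are of mixed RNA, not of CD8 T cells alone. Mitochondrially encoded genes took 6.57% and 6.99% of counts in KO and 10.4% and 10.2% in WT. In bulk RNA, fewer cells of a type and less RNA per cell cannot be told apart. The part of these differences in the results that follow was not tested.

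Promoter sequence was found in the RefSeq table (GRCm38.p6; 250 bases before to 50 after a gene's start) for 29 of the 36 members. Those without an entry were Psma8, Psmb1, Psmb2, Psmb7, Psmc3, Psmd3 and Psmd7. Shown are the bases before the start that lie in no annotated exon, for the 3 members with an entry that passed the test of KO against WT (Psmd5, Psmb3 and Psmb10) and for the constitutive catalytic members Psmb5 and Psmb6. Capitals mark matches on either strand to CCAAT, the letters bound by NF-Y, to TGAC and GC with any 3 bases between, the core of the antioxidant response element through which the transcription factors encoded by Nfe2l1 and Nfe2l2 act, to GAAA and GAAA with any 2 bases between, a core of interferon response elements, and to TCTCGCGAGA, a palindrome repeated in the Psmd5 stretch.
Psmd5 (chr2:34870963-34871107, minus strand): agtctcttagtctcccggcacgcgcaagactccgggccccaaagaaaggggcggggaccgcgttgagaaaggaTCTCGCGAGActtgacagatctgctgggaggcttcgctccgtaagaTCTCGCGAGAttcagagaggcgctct
Psmb3 (chr11:97703184-97703398, plus strand): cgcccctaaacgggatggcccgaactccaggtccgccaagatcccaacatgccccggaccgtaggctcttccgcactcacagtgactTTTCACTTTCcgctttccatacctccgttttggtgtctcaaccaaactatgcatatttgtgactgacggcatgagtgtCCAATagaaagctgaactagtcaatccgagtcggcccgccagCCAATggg
Psmb10 (chr8:105938445-105938642, minus strand): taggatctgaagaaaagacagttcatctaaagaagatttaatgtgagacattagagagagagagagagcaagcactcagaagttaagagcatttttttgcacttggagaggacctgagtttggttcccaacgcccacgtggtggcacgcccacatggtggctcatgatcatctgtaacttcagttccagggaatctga
Psmb5 (chr14:54618023-54618245, minus strand): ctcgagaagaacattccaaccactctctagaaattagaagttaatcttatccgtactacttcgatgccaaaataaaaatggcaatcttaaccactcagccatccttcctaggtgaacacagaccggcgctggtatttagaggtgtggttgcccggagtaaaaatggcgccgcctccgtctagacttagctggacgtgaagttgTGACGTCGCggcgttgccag
Psmb6 (chr11:70525107-70525356, plus strand): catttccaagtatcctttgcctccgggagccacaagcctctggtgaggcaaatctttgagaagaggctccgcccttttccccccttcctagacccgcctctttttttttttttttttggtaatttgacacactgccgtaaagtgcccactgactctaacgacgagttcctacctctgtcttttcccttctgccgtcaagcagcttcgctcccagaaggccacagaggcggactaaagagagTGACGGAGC
The Psmd5 stretch held TCTCGCGAGA at positions -72 and -26, counted back from the start. Psmb3 held CCAAT at -85 and -43 and the interferon core on the opposite strand at -163. Psmb5 and Psmb6 held the antioxidant core at -47 and -9, and the Psmb10 stretch held none of these letters. The antioxidant core was found in the windows of 5 of 29 members, or 17.2%, and of 14.0% of the 27025 genes with a window. Its longer form, the core with A on either side, was found in 0 of 29 members and 0.740% of genes. CCAAT was found in 11 of 29 members, or 37.9%, and 41.1% of genes. The interferon core was found in 3 of 29 members, or 10.3%, and 3.99% of genes, and TCTCGCGAGA, searched after the Psmd5 stretch was seen, in 1 of 29 members and 0.525% of genes.

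Of the 36 members, 4 were higher (Psmd5, Psmd7, Psmb3 and Psmb7) and 2 lower (Psmb1 and Psmb10) in KO at an edgeR adjusted p under 0.05. That is 16.7% of members called, against 21.2% of the 13358 genes tested, with 11.1% of members higher against 10.1% of tested genes, and 5.56% lower against 11.0%. Among the 3240 tested genes whose mean CPM lay in the range of the members other than Psma8, 34.7% were called. The median log2 fold change was 0.031 over the members and -0.0037 over all tested genes. The interquartile range was -0.049 to 0.089 over the members and -0.22 to 0.21 over all tested genes. The median standard error was 0.058 over the members other than Psma8 and 0.14 over all tested genes, so precision differed as well. None of the 36 members changed by more than 1.5-fold, a size that 17.8% of all tested genes and 5.15% of those in the same CPM range passed. Both KO libraries lay above both WT libraries for 11 members (30.6%, against 29.7% of tested genes) and below them for 8 (22.2%, against 30.0%). With library totals alone as the scaling, Psma7, Psmb6, Psmc1, Psmc5 and Psmc6 passed as well, making 9 members higher and 2 lower, and the share of higher calls was 81.8% of member calls, against 66.7% with TMM. Over all genes that scaling moved the share of higher calls to 67.5%, against 47.9%. The call count over all genes, 2826, was 1545 without WT replicate 1 and 1759 without WT replicate 2.

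**Figure D1:**
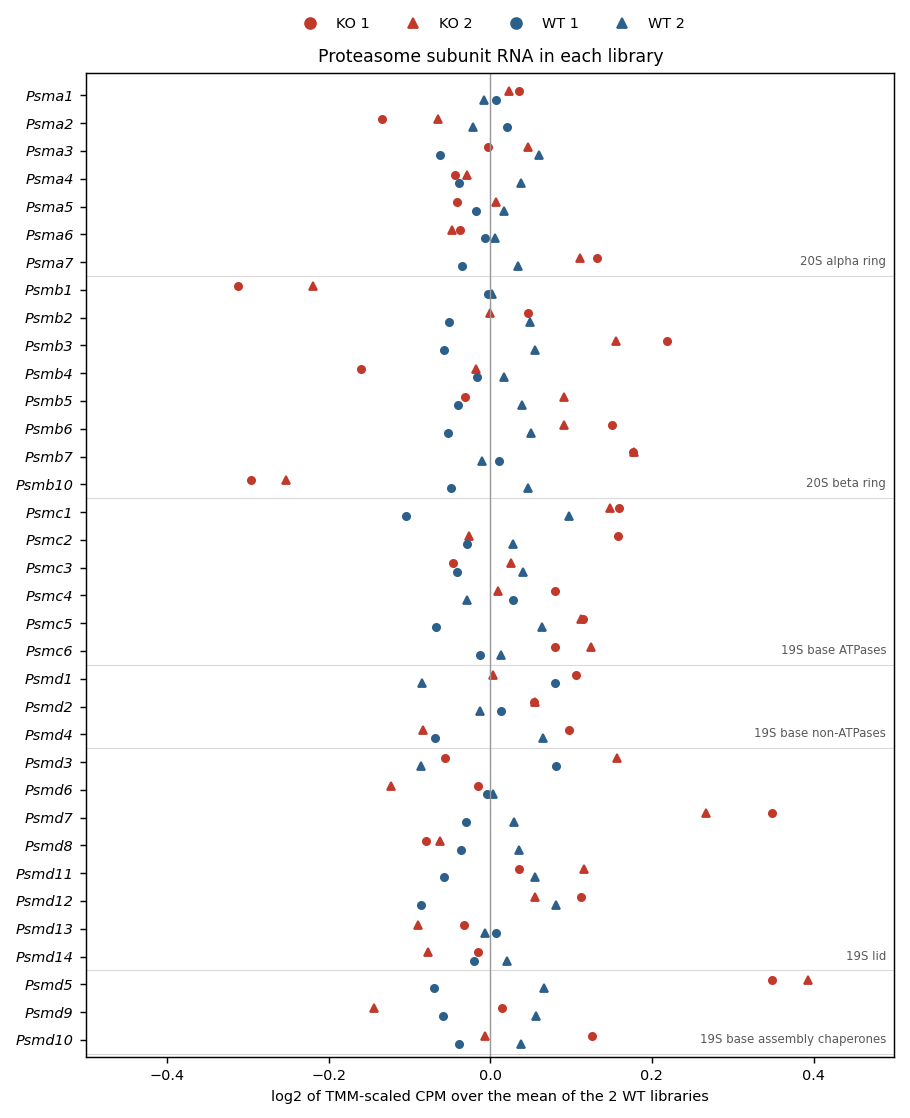
Level of 35 proteasome subunits in each library, as the log2 of TMM-scaled CPM over the mean of the 2 WT libraries (horizontal axis), by role in the particle; red points are KO, blue points WT, and circles and triangles are replicates 1 and 2. Psmd5 and Psmd7 lie to the right of the WT points and Psmb1 and Psmb10 to the left, while most other members have KO points near or among the WT points.

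With TMM scaling, most members not called had narrow intervals for the difference between these 4 libraries. The intervals take that scaling as given, and with library totals alone Psma7, Psmb6, Psmc1, Psmc5 and Psmc6 passed the test. For 29 of the 30, the 95% confidence interval of the log2 fold change lay within 0.32 of 0 in either direction. The exception was Psma8, an alpha subunit gene known from the testis, which had 48 and 16 counts in KO and 24 and 50 in WT, too few to bound it (log2 fold change -0.33, interval -1.66 to 0.99). Psmb11, which encodes the beta subunit of thymic epithelium, was not among the listed genes. The other 35 members had mean levels from 56.5 to 384 CPM, and the median standard error of their log2 fold changes was 0.058, against 0.14 over all tested genes.

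**Figure D2:**
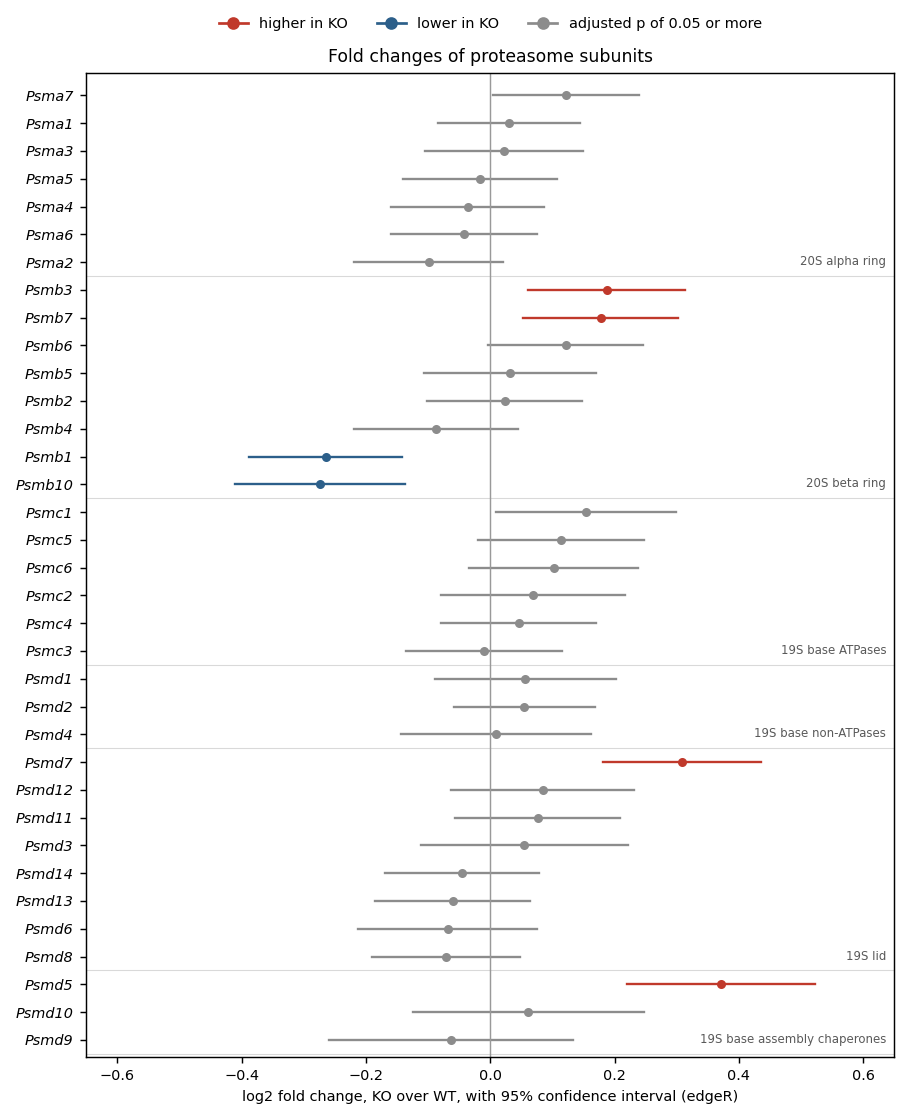
Log2 fold change, KO over WT, of 35 proteasome subunits with 95% confidence intervals from edgeR (horizontal axis), by role; red marks members higher in KO, blue members lower in KO and grey members with an adjusted p of 0.05 or more. Psmd5 (0.37) and Psmd7 (0.31) lie farthest right, and Psmb10 (-0.27) and Psmb1 (-0.26) farthest left.

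Counts of the members together took 0.826% and 0.823% of the library in KO and 0.748% and 0.771% in WT. Both KO libraries were above both WT libraries, but 2 libraries against 2 cannot give an exact two-sided permutation p under 0.333. With mitochondrially encoded genes left out of the total, the shares were 0.884% and 0.885% in KO and 0.835% and 0.859% in WT. On the TMM scale the members summed to 8007 ± 17.3 CPM in KO and 7825 ± 189 CPM in WT (SD, n = 2 each), so that the difference, 2.32% of the WT mean, was no larger than the WT spread.

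None of the 8 alpha ring genes passed the edgeR test in either direction, which 21.2% of all tested genes passed. DESeq2 and limma-voom called 0 as well, library totals alone gave 1 higher (Psma7), and the same gene alone had p under 0.05 before adjustment. Psma7 had 403 and 398 CPM in KO and 359 and 377 CPM in WT. The KO libraries lay above the WT libraries, with a log2 fold change of 0.12 ± 0.054 (SE; edgeR adjusted p = 0.137). Psma2 had 287 and 301 CPM in KO and 319 and 310 CPM in WT, a log2 fold change of -0.099. The remaining alpha genes other than Psma8, Psma1 and Psma3 to Psma6, had log2 fold changes from -0.042 (Psma6) to 0.030 (Psma1). Summed over the ring, the levels were 1977 and 2000 CPM in KO and 1954 and 2007 CPM in WT, with the groups overlapping.

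In the beta ring 4 of 8 genes were called, 2 in each direction, where 21.2% of all tested genes and 34.7% of those in the members' CPM range were called. The count was 2 without WT replicate 1, WT replicate 2 or KO replicate 1, and 2 with the replicate number as a block. Psmb1, a beta subunit without a protease site, had 235 and 250 CPM in KO and 291 and 292 CPM in WT. Both KO libraries were below both WT libraries, and its log2 fold change was -0.26 with an interval of -0.39 to -0.14 (edgeR adjusted p = 0.00536). It was called under all 12 alternatives tried, with adjusted p-values between 0.000446 and 0.0358 (edgeR, DESeq2 or limma). Psmb3, another subunit without a protease site, had 384 and 368 CPM in KO and 317 and 343 CPM in WT. The KO libraries were higher, with a log2 fold change of 0.19 ± 0.058 (SE; edgeR adjusted p = 0.0380). That call was lost without WT replicate 1 (edgeR adjusted p = 0.351) and without KO replicate 1 (0.127), and reads of Psmb3 may be shared with 3 annotated pseudogene copies, so the value is uncertain. Psmb2 and Psmb4, also without a protease site, had log2 fold changes of 0.023 and -0.087 and were not called. The ring summed to 2040 and 2061 CPM in KO and 1991 and 2087 CPM in WT.

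Of the catalytic members, the interferon-inducible Psmb10 fell and its constitutive counterpart Psmb7 was higher. Psmb10 (chromosome 8, 105935735 to 105938444, mm10) had 124 and 128 CPM in KO and 148 and 158 CPM in WT, with no overlap between the groups. Its log2 fold change was -0.27 with an interval of -0.41 to -0.14 (edgeR adjusted p = 0.00802), and without WT replicate 2 it was -0.22 (edgeR adjusted p = 0.102, the highest of 12 alternatives, the lowest being 0.00197). Psmb7 (chromosome 2, 38588036 to 38644087) had 174 and 174 CPM in KO and 155 and 153 CPM in WT, which did not overlap, and a log2 fold change of 0.18 (edgeR adjusted p = 0.0450). This call was made under 5 of the 12 alternatives and was lost when any 1 library was left out (edgeR adjusted p = 0.186 and 0.223 without WT replicates 1 and 2, and 0.0807 and 0.0825 without KO replicates 1 and 2). The exons of Psmb7 share 405 bases with Nek6 on the opposite strand, and Nek6 was higher too (79.4 and 72.2 CPM in KO, 59.9 and 59.5 CPM in WT; edgeR adjusted p = 0.00906). Whether the counting used strand is not given in the sources used here, so Psmb7 is uncertain.

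The other constitutive catalytic genes did not pass the test. Psmb6, which encodes the caspase-like subunit, had 383 and 368 CPM in KO and 333 and 357 CPM in WT, a log2 fold change of 0.12 with an interval of -0.0031 to 0.25 (edgeR adjusted p = 0.164), which was 0.068 without WT replicate 1 (edgeR adjusted p = 0.686) and passed with library totals alone (0.21, edgeR adjusted p = 0.0189). Psmb5, which encodes the chymotrypsin-like subunit, had 171 and 187 CPM in KO and 170 and 180 CPM in WT. These overlapped, with a log2 fold change of 0.032 and an interval of -0.11 to 0.17 (edgeR adjusted p = 0.784), and the sign turned to -0.011 without WT replicate 1 and -0.032 without KO replicate 2. Of the inducible counterparts outside the rule, Psmb8 had 433 and 417 CPM in KO and 460 and 493 CPM in WT (log2 fold change -0.17, edgeR adjusted p = 0.0519, with a range of 0.0445 to 0.401 over the alternatives), and Psmb9 had 285 and 280 CPM in KO and 279 and 292 CPM in WT (edgeR adjusted p = 0.885). Psmb8 passed with DESeq2, limma-voom and without KO replicate 1, while scaling by library totals alone gave a log2 fold change of -0.082, and leaving out WT replicate 2 gave -0.11.

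The ratio of an inducible to its constitutive subunit, taken from the counts of one library, does not depend on the scaling between libraries. The log2 ratio of Psmb10 to Psmb7 was -0.48 and -0.44 in KO and -0.069 and 0.046 in WT, a difference in means of -0.45. The log2 ratio of Psmb8 to Psmb5 was 1.34 and 1.16 in KO and 1.43 and 1.45 in WT, a difference of -0.20. The log2 ratio of Psmb9 to Psmb6 was -0.43 and -0.39 in KO and -0.25 and -0.29 in WT, a difference of -0.14. For all 3 pairs both KO libraries lay below both WT libraries, but the exact permutation test of 2 against 2 libraries cannot go below 0.333. Psmb9 shares 212 exon bases with Tap1 on the opposite strand and is uncertain. Psmb7 is uncertain too, for its overlap with Nek6. Reads of Psmb5 may be shared with an annotated pseudogene copy, 98.9% identical over 796 bases. Psmb8 shares 498 exon bases with Gm20496 on the opposite strand, which was not among the listed genes. All 3 ratios are therefore uncertain. The T cell marker sum was lower and the neutrophil marker sum higher in the KO libraries, as given above, and their part in these ratios was not tested.

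**Figure D3:**
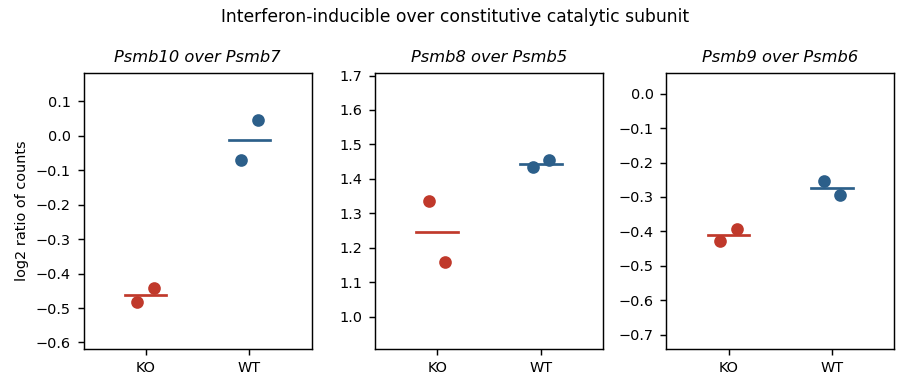
Log2 ratio of counts (vertical axes, each spanning the same range) of the interferon-inducible over the constitutive catalytic subunit gene in the 2 KO and 2 WT libraries; points are libraries and bars their means. The KO points lie below the WT points in each panel, by 0.45 for Psmb10 over Psmb7, 0.20 for Psmb8 over Psmb5 and 0.14 for Psmb9 over Psmb6. Each ratio is uncertain, as exons of Psmb7, Psmb8 and Psmb9 overlap another gene and Psmb5 has a near-identical pseudogene copy.

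The products of the base ATPase genes form the ring that pulls substrates into the core. In either direction, edgeR called 0 of these 6 genes, against 21.2% of all tested genes, and DESeq2 and limma-voom also called 0. Psmc1 alone had p under 0.05 before adjustment, and library totals alone gave 3 higher. Psmc1 had 315 and 312 CPM in KO and 262 and 302 CPM in WT. Both KO values were higher, but the WT libraries were wide apart, and the log2 fold change was 0.15 ± 0.067 (SE; edgeR adjusted p = 0.128). It was 0.053 without WT replicate 1 (edgeR adjusted p = 0.769) and 0.26 without WT replicate 2 (edgeR adjusted p = 0.0248). Psmc5 and Psmc6 also had both KO libraries above both WT libraries, with log2 fold changes of 0.11 and 0.10. Psmc2, Psmc3 and Psmc4 overlapped, with log2 fold changes of 0.069, -0.010 and 0.045. The ATPase genes summed to 1305 and 1283 CPM in KO and 1189 and 1261 CPM in WT. The base scaffold gene Psmd2, with 372 and 372 CPM in KO and 361 and 355 CPM in WT, the scaffold gene Psmd1 and the ubiquitin receptor gene Psmd4 had log2 fold changes of 0.055, 0.056 and 0.0098, none called.

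Among the 8 lid genes only Psmd7 passed the test under TMM scaling, which 21.2% of all tested genes passed. Psmd7 encodes the inactive partner of the lid's deubiquitinating enzyme (chromosome 8, 107580381 to 107588464, mm10). It had 244 and 231 CPM in KO and 188 and 196 CPM in WT, so the groups were well apart. The log2 fold change was 0.31 with an interval of 0.18 to 0.43 (edgeR adjusted p = 0.00244), and it was called under all 12 alternatives (adjusted p between 3.81e-05 and 0.0308 with edgeR, DESeq2 or limma). Psmd14, which encodes the deubiquitinating enzyme itself, had 195 and 187 CPM in KO and 194 and 200 CPM in WT, a log2 fold change of -0.046 with an interval of -0.17 to 0.079. The structural lid genes Psmd3, Psmd6, Psmd8, Psmd11, Psmd12 and Psmd13 had log2 fold changes from -0.071 (Psmd8) to 0.084 (Psmd12) and were not called. The whole lid summed to 1616 and 1620 CPM in KO and 1559 and 1597 CPM in WT.

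Psmd5 had the largest rise of any member. Its product is a chaperone that holds part of the ATPase ring during assembly and is not part of the finished particle (chromosome 2, 34849734 to 34874968, mm10). The Psmd5 promoter stretch printed above lies before the RefSeq start, which is inside this GENCODE M21 span. Psmd5 had 123 and 127 CPM in KO and 92.3 and 101 CPM in WT. Both KO libraries lay above both WT libraries, with a log2 fold change of 0.37, or 1.29-fold, an interval of 0.22 to 0.52 and an edgeR adjusted p of 0.00232. The call was made under all 12 alternatives, with adjusted p-values between 4.83e-05 and 0.0373 (edgeR, DESeq2 or limma). The other base chaperone genes, Psmd9 and Psmd10, had log2 fold changes of -0.063 and 0.061, with overlapping groups (58.3 and 52.3 CPM in KO, 55.5 and 60.1 CPM in WT for Psmd9; 63.7 and 58.1 CPM in KO, 56.8 and 59.9 CPM in WT for Psmd10).

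By median level per transcript length the core particle rings stood above the lid, although single genes crossed that order. Levels here are TMM-scaled CPM per kilobase of the longest principal transcript, a choice made after the lengths were seen, and leave out Psma8. The medians over the 7 alpha genes were 179 in KO and 183 in WT, over the 8 beta genes 221 and 226, over the 6 ATPase genes 149 and 141, and over the 8 lid genes 95.1 and 95.1. The 3 chaperone genes had 28.5 in KO and 22.0 in WT (Psmd5), 21.3 in KO and 22.2 in WT (Psmd9) and 42.6 in KO and 40.8 in WT (Psmd10), the lowest 3 of the 35 in either group. The highest levels were those of Psmb3 (491 in KO, 431 in WT), Psmb6 (470 in KO, 432 in WT) and Psma7 (438 in KO, 403 in WT). The lid gene Psmd8, at 194 in KO and 204 in WT, lay above the alpha ring gene Psma2, at 101 in KO and 108 in WT. Psmb10 stood at 96.4 in KO and 117 in WT, and Psmb7 at 150 in KO and 133 in WT. The highest gene exceeded the lowest 23.1-fold in KO and 19.6-fold in WT. With the length of all annotated exons, which the deposited FPKM values use, these ratios were 31.6-fold and 29.8-fold, the highest gene was Psmb2 in both groups (241 in KO, 237 in WT), and Psmd9 and Psmd5 were the lowest 2.

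**Figure D4:**
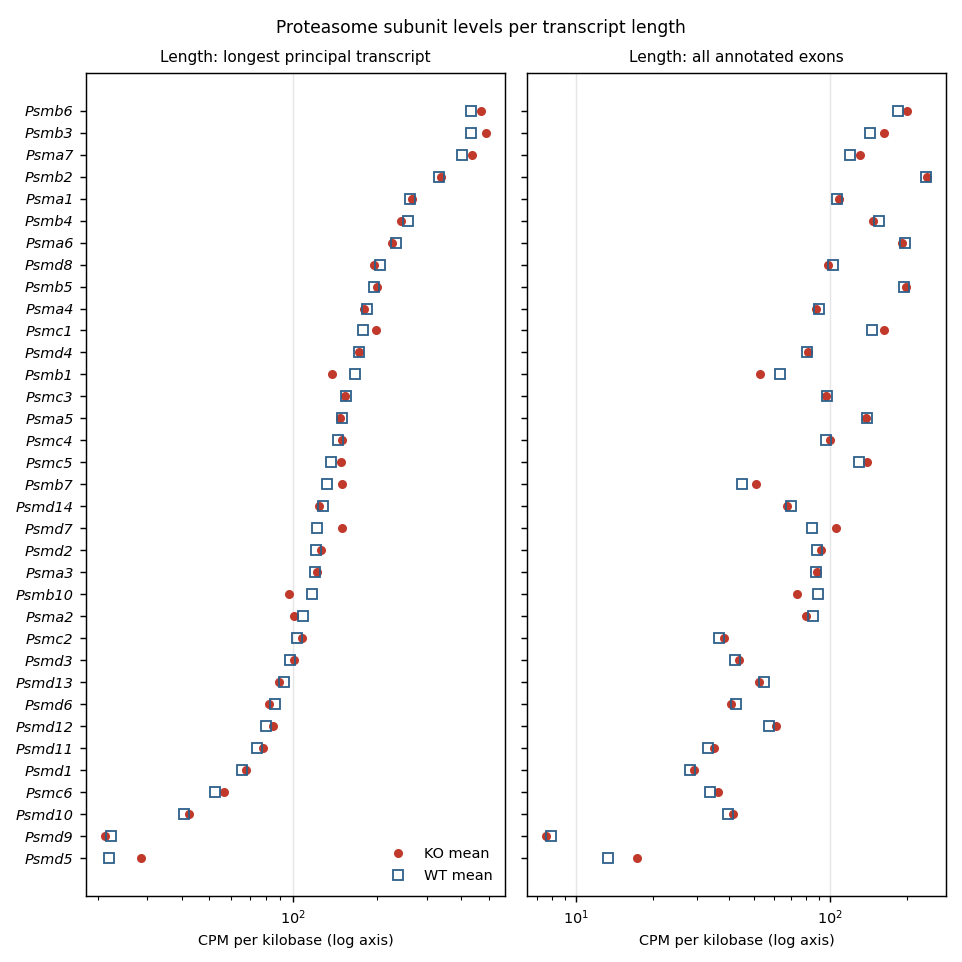
Mean level of 35 proteasome subunits in CPM per kilobase (horizontal log axes) for KO (filled red) and WT (open blue), with the longest principal transcript (left) or all annotated exons (right) as the length, ordered by the WT level on the left. The assembly chaperone genes Psmd5, Psmd9 and Psmd10 are lowest on the left, and Psmb3, Psmb6 and Psma7 highest.

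Of 6 genes for activators that cap the core in place of the regulatory particle, and for an inhibitor, 1 was higher and 4 lower. Over all 45 partner genes outside the rule, of which these are 6, 24.4% were called, 13.3% higher and 11.1% lower, against 21.2%, 10.1% and 11.0% of all tested genes. Psme1 and Psme2 encode the interferon-inducible cytoplasmic cap, Psme3 the nuclear cap and Psme4 a single-chain cap. Psme3 had 218 and 200 CPM in KO and 153 and 157 CPM in WT, a clear separation, with a log2 fold change of 0.43 ± 0.062 (SE; edgeR adjusted p = 0.000362). Psme4 had 19.6 and 17.9 CPM in KO and 26.1 and 27.8 CPM in WT, with a log2 fold change of -0.52 ± 0.12 (SE; edgeR adjusted p = 0.00959). Psme2 had 240 and 220 CPM in KO and 269 and 279 CPM in WT, lower in both KO libraries, with a log2 fold change of -0.25 (edgeR adjusted p = 0.00957). The other lower genes, named after their values were seen, were Psme1 (-0.20, edgeR adjusted p = 0.0256) and Psme2b (-0.30, edgeR adjusted p = 0.0130). Psme2 and Psme2b are 99.4% identical over 794 bases, so reads could be split between them and both are uncertain. Without WT replicate 2 only Psme3 of these 6 was called (Psme2 edgeR adjusted p = 0.0703, Psme4 0.0955), and library totals alone gave 1 higher and 1 lower. The inhibitor gene Psmf1 had a log2 fold change of 0.13 and was not called.

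Of 5 genes for chaperones of the core rings, 2 were higher and 0 lower (0 lower also with DESeq2, limma-voom and before adjustment). Of all tested genes, 10.1% were higher and 11.0% lower. Psmg1, which encodes a subunit of a dimer that starts alpha ring assembly, had 63.9 and 65.9 CPM in KO and 49.7 and 46.9 CPM in WT, with a log2 fold change of 0.43 (edgeR adjusted p = 0.00320). Psmg3 averaged 26.3 ± 1.07 CPM in KO and 19.6 ± 2.19 CPM in WT (SD, n = 2 each), without overlap, with a log2 fold change of 0.43 (edgeR adjusted p = 0.0325), a call lost without WT replicate 1 (0.31, edgeR adjusted p = 0.315). Psmg2 and Psmg4, the dimer partners of these 2, had log2 fold changes of 0.058 and 0.065 and Pomp, the maturation factor of the beta ring, 0.025, none called.

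Of 9 genes for transcription factors and other regulators of proteasome genes, 1 was higher and 0 lower (0 lower also with DESeq2 and limma-voom, and 2 lower, Akirin2 and Ngly1, at p under 0.05 before adjustment). The shares over all tested genes were 10.1% higher and 11.0% lower. Nfe2l2, which encodes the antioxidant response factor NRF2, had 153 and 160 CPM in KO and 125 and 127 CPM in WT, with a log2 fold change of 0.32 (edgeR adjusted p = 0.00270). Nfe2l1, which encodes the factor that raises proteasome genes when proteasome activity falls, had 79.7 and 81.9 CPM in KO and 70.4 and 69.8 CPM in WT. These did not overlap, and the log2 fold change of 0.21 missed the threshold (edgeR adjusted p = 0.0665, with a range of 0.0122 to 0.256 over the alternatives).

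Genes that make ubiquitin and carry substrates to the proteasome were called singly. Of 12 ubiquitin, activating enzyme and segregase genes 1 was higher and 1 lower, with 0 called without WT replicate 1 and 2 higher and 0 lower with library totals alone. Vcp, the ATPase that extracts ubiquitinated proteins from complexes, had 297 and 307 CPM in KO and 351 and 336 CPM in WT, with a log2 fold change of -0.19 (edgeR adjusted p = 0.0285). The call was lost without WT replicate 1, WT replicate 2 or KO replicate 1 (edgeR adjusted p = 0.221, 0.0649 and 0.103) and with library totals alone (0.208), and 352 bases of Vcp exons overlap another listed gene on the opposite strand, so Vcp is uncertain. Faf1, a cofactor of that ATPase, had 53.9 and 65.2 CPM in KO and 44.0 and 49.7 CPM in WT, with a log2 fold change of 0.35 (edgeR adjusted p = 0.0360, or 0.254 without WT replicate 1 and 0.171 without KO replicate 2). Of 5 shuttle receptor genes, Rad23b was higher and 0 were lower (0 lower also with DESeq2, limma-voom and before adjustment), and 2 were higher without KO replicate 1 or KO replicate 2 and with upper quartile scaling, and 3 with library totals alone. Rad23b had 100 and 91.1 CPM in KO and 74.3 and 74.9 CPM in WT, with a log2 fold change of 0.36 (edgeR adjusted p = 0.00461). Of 6 further components and partners, among them the receptor gene Adrm1, the lid gene Sem1 and the deubiquitinase gene Usp14, 0 were higher and 0 lower (log2 fold changes of 0.083, 0.038 and 0.075 for these 3), and 1 was lower without KO replicate 2, or before adjustment (Txnl1). DESeq2 and limma-voom called 0 of these 6, and Usp14 overlaps Thoc1 on the opposite strand. Over all 45 partner genes, 6 were higher and 5 lower, near the shares of all tested genes (10.1% higher and 11.0% lower). The median log2 fold change over the 45 partner genes was 0.00011.

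**Figure D5:**
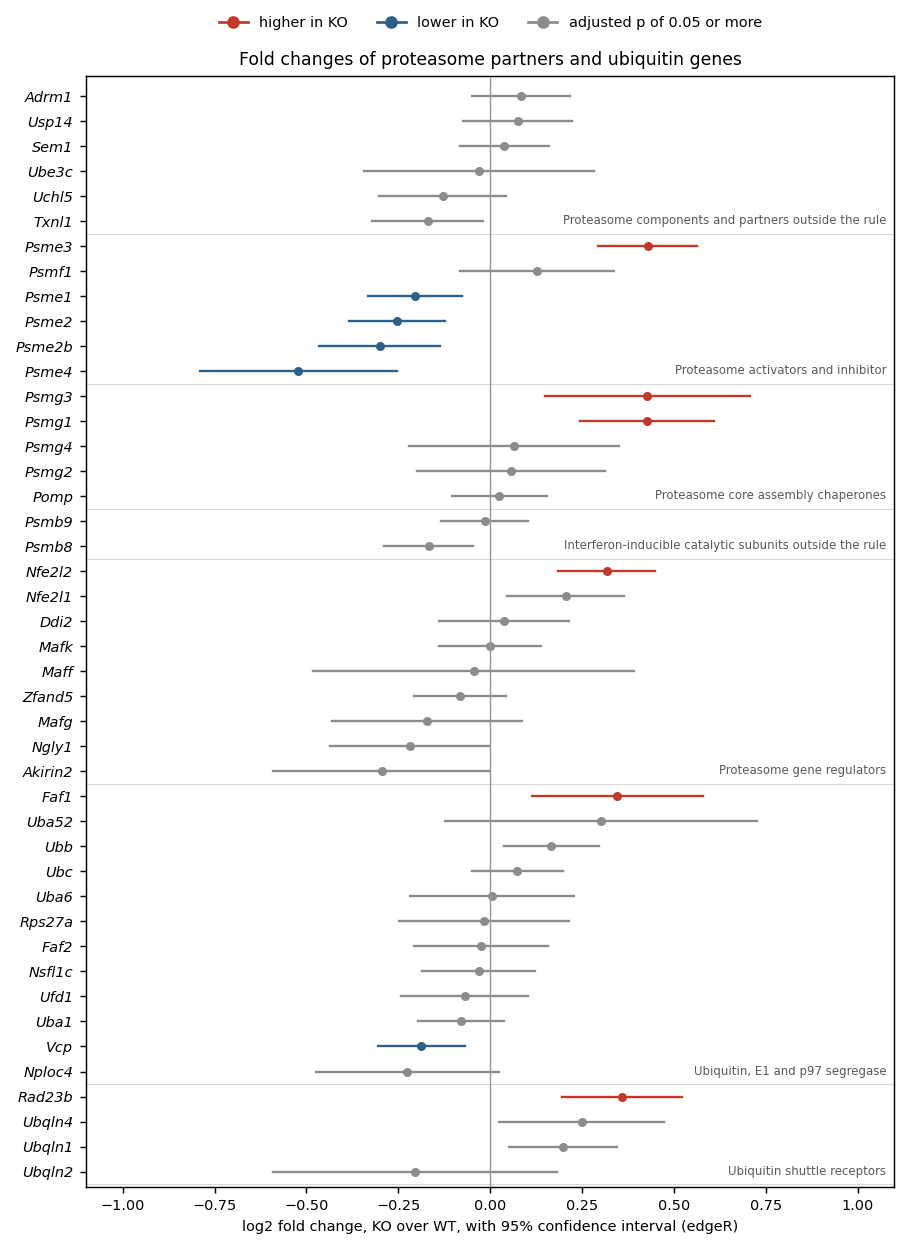
Log2 fold change, KO over WT, with 95% confidence intervals from edgeR (horizontal axis) for genes that activate, assemble, regulate or feed the proteasome, by list; red is higher in KO, blue lower in KO and grey an adjusted p of 0.05 or more. Psme3, Psmg1 and Psmg3 lie near 0.43, and Psme4 lies at -0.52.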

How the data were processed

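Total RNA of 4 sorted samples was sequenced, with 1 deposited table per library. Build mm10 and the tools featureCounts, Bowtie2, DESeq2, edgeR and Trim Galore (0.4.4) appear, with no roles, in the submitters' processing notes. For strandedness and annotation, the sources used here say nothing. The deposited counts, whole numbers of reads per gene, were used as the authors made them. The deposited FPKM values served only to learn the gene length used: for 98.4% of the genes compared it matched the GENCODE M21 exon length within 0.1%. The test was edgeR's (4.0.16, under R 4.3.3; TMM, filterByExpr, robust quasi-likelihood fit), over all 13358 genes left after 724 were removed, with p-values adjusted over all of them (Benjamini-Hochberg). Each 95% interval uses the standard error that the F statistic implies. The fit was tested on simulated data. Alternatives were other scalings, no filter, DESeq2 1.42.0, limma-voom 3.58.1, a replicate block and leaving out each library. Leaving out mitochondrial genes and using principal transcript lengths were added after the data were seen. Promoters are RefSeq's, and copies are transcripts of other genes at least 95% identical over at least 200 bases. Genes named with full values were the called members, the catalytic members, Psma8, up to 3 called genes of each partner list by p, and a fixed few. The values of 1 partner gene are not reported here. The members and lists were chosen with earlier results of these data known. Library pairs within each genotype varied beyond counting error (chi-square per degree of freedom 10.0 in KO, 7.74 in WT).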

Additional observations from a re-analysis of the deposited data

How the results depend on the processing

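Library totals alone as the scaling gave 11 called members instead of 6 and a member median log2 fold change of 0.12 (0.082 over all tested genes). The difference in the share of counts, 0.065 percentage points, was 0.037 with mitochondrially encoded genes left out of the total. Leaving out each library in turn gave 4 to 5 called members, 1545 to 3392 called genes, a member median between -0.0052 and 0.060, a Smad4 log2 fold change between -0.063 and 0.40, a share difference between 0.053 and 0.077 percentage points and a Psmb10 to Psmb7 log2 ratio difference between -0.51 and -0.39. The sign turned for uncalled genes: Psmb5 ranged from -0.032 to 0.091 and Psma8 from -1.34 to 0.25 on leaving out libraries, and Psmb9 was 0.070 with library totals alone and ranged from -0.050 to 0.020 on leaving out libraries. With the replicate number as a block, 4 members (2 higher, 2 lower) and 2915 genes were called, and Psmb3 and Psmb7 lost their calls (edgeR adjusted p = 0.0901 and 0.128), as did Vcp (0.0926). Deviations of same-numbered libraries correlated at -0.015 over tested genes, so the numbers were not taken to pair the libraries. DESeq2 and limma-voom called 5 members each, without Psmb7 (adjusted p = 0.0638 and 0.0524). Psme2 missed the threshold with library totals alone (edgeR adjusted p = 0.0606). The cause of these shifts was not tested. Over all comparisons of a named gene, Smad4 aside, with an alternative, 255 kept direction and call, 22 lost the call, 5 gained it and 6 turned sign.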

Other observations

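Processed copies of proteasome genes are frequent in the mouse genome and bear on how their reads can be counted. In GENCODE M21, 8 of the 36 members had at least 1 transcript of another gene with 95% identity or more over at least 200 bases, 16 copies in all, of which 14 were annotated as pseudogenes. None of the 16 was among the 14082 listed genes. The members with copies were Psma3 (4 copies), Psma4 (1), Psma5 (2), Psmb3 (3), Psmb5 (1), Psmc1 (2), Psmd2 (1) and Psmd11 (2). Of the 6 called members, Psmb3 alone was among them, while Psmb1, Psmb7, Psmb10, Psmd5 and Psmd7 had none. Exons of Psma4, Psmb7, Psmc3, Psmd1 and Psmd13 overlapped another listed gene on the opposite strand. How the authors' counting treated reads that map to several places is not given in the sources used here.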
